A study of Mus musculus with 4 samples.

Results

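The Hippo group described here consists of 10 genes: the transcriptional effectors Yap1 and Wwtr1, their DNA-binding partners Tead1, Tead2, Tead3 and Tead4, and the target genes Ccn1, Ccn2, Ankrd1 and Amotl2. Members were found by the gene symbol that the platform annotation gives each probe, with Ccn1 written there as Cyr61 and Ccn2 as Ctgf. Each of the 10 genes had 1 such probe, and all 10 were measured on every array, out of 16390 genes with a named probe and 13765 that could be tested. A further Tead1 probe carried an older clone name and was assigned by updating symbols. The probe annotated as Taz was not counted, since Taz is a mouse symbol of tafazzin and only an old synonym of Wwtr1.

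The Hippo pathway is a kinase cascade in which the kinases Stk3 and Stk4 activate Lats1 and Lats2, which phosphorylate the proteins YAP and TAZ and keep them out of the nucleus. TAZ is the product of Wwtr1. In the nucleus YAP and TAZ bind TEAD factors on DNA and raise the transcription of genes such as Ccn1, Ccn2, Ankrd1 and Amotl2, which are widely read as a measure of their activity. In the brain the pathway is known for its part in the growth of neural progenitors and of glioma cells. Its signal is largely set by phosphorylation and location of the proteins, which messenger RNA levels do not show.

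The samples were 4 RNA preparations of NSCL61, a mouse glioma-initiating cell line derived from neural stem cells, labelled as strain C57BL6, brain, stage P0, and known to carry an activated HRas and to lack p53. In 2 samples, labelled as the line alone, the series title speaks of a control hairpin, and in the other 2 the cells expressed a short hairpin RNA (shRNA) against Eva1, an adhesion protein whose gene is now named Mpzl2. Transfected cells were selected with hygromycin, for 1 week by one protocol in the labels and for 2 weeks by another. The labels name neither the number of hairpins nor separate cultures. The p-values therefore cover no more than the spread among these 4 arrays, and that spread may be technical.

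RNA was hybridised in 1 colour (Cy5) to 3D-Gene mouse chips, and the values are intensities scaled by the authors to a median near 25 on each array. Levels are given as these intensities, and log2 changes, Eva1 shRNA minus control, were computed after quantile normalization with limma. The targeted gene Mpzl2 had intensities of 55.0 and 54.4 in control cells and 8.20 and 6.21 in Eva1 shRNA cells, a log2 change of -3.12 ± 0.16 (standard error, limma adjusted p = 0.00105 over 13765 genes). The lower values lay at the upper end of those of partly blank probes. Adding 16 units to every intensity, which damps dim probes, gave a log2 change of -1.71. The neural stem cell gene Nes was bright on all 4 arrays (430 to 537), while the astrocyte gene Gfap was blank on 2 arrays and at most 2.58 on the others. Across all genes tested 1720 were called higher and 1856 lower in Eva1 shRNA cells, so that 48.1% of calls were higher, against 67.7% with the authors' scaling alone. That scaling moved the median log2 change of all genes from -0.01 to 0.18.

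The proximal promoters of Ankrd1, Amotl2 and Ccn1 are shown first. These 3 target genes rose, and their windows hold the core letters that TEAD factors are known to bind. The target Ccn2 rose as well, but no promoter window was matched for it. Each sequence is the 250 bases before the transcription start, taken from RefSeq on the assembly GRCm38.p6 and written 5′ to 3′ on the strand of the gene. The capitals mark GGAATG, or CATTCC where the same letters lie on the opposite strand. The Ankrd1 window is chr19:36119845-36120094 (minus strand), the Amotl2 window chr9:102717554-102717803 (plus strand) and the Ccn1 window chr3:145649986-145650235 (minus strand).
Ankrd1: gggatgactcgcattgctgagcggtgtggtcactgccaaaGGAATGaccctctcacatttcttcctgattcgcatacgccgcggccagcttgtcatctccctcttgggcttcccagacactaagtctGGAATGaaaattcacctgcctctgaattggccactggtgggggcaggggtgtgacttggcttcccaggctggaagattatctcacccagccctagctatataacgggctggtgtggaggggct
Amotl2: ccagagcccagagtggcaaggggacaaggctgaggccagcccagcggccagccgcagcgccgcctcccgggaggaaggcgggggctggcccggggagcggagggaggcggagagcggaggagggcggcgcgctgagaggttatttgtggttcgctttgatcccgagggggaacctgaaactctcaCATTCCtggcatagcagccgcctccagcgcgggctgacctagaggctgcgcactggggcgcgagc
Ccn1: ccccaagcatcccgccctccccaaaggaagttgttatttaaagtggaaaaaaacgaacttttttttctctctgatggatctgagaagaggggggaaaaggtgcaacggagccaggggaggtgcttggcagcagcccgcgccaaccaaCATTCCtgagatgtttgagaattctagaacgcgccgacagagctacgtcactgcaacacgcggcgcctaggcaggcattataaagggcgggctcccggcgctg

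The effector genes Yap1 and Wwtr1 also held GGAATG before their starts, and they are shown because their messages changed in opposite directions. The stretches are chr9:8004712-8004757 for Yap1 and chr3:57576021-57576066 for Wwtr1, both on the minus strand, with 20 bases on each side of the motif.
Yap1: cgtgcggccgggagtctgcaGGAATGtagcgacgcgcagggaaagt
Wwtr1: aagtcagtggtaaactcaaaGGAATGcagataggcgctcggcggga

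RefSeq windows were matched for 7 of the 10 members, and those of 6 members (all but Tead2) held GGAATG on either strand. Ccn2, Tead1 and Tead4 had no matched window, so nothing is known here of the motif before them. Ankrd1 had 2 copies, which began 210 and 123 bases before the start, and the Amotl2 and Ccn1 copies began 65 and 103 bases before it. The Yap1 copy began 141 bases before the start, and in 1 of the 3 Tead3 windows there were 2 copies. Over all 32851 promoter windows of the same length 12.6% held the motif, and 14.4% of the 27025 genes had it in at least 1 window. The serum response element known as the CArG box, searched on both strands, was in 0 of the 10 member windows and in 1.47% of all windows, and no match says only that these letters are not in the window. A motif match is a description of letters and not of binding.

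Of the 10 members, 6 rose in Eva1 shRNA cells, 2 fell and 2 did not pass the test (limma, two-sided, Benjamini-Hochberg adjusted p under 0.05 over all 13765 genes). Over all genes tested 26.0% were called, 12.5% higher and 13.5% lower. The 4 target genes Ankrd1, Amotl2, Ccn2 and Ccn1 were all among those that rose, each by at least 2-fold, which 5.17% of all genes did. Tead2 also rose by at least 2-fold. Of the 2 members that fell, 0 reached 2-fold, against 6.41% of all genes called lower by that much. By the annotated probes the groups did not overlap after normalization for 8 members, 6 of them higher. With the brighter Tead1 probe in place of the annotated one these counts were 9 and 7. Over all genes the groups did not overlap for 66.7% in either direction and 32.6% in the higher direction. Among the factors themselves Yap1 and Tead2 rose while Wwtr1 and Tead4 fell. The median log2 change of the members was 0.82, against -0.01 for all genes. With 1 array left out, 5 members were called higher when either control array was dropped, 4 when Eva1 shRNA array 1 was and 3 when Eva1 shRNA array 2 was.

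**Figure D1:**
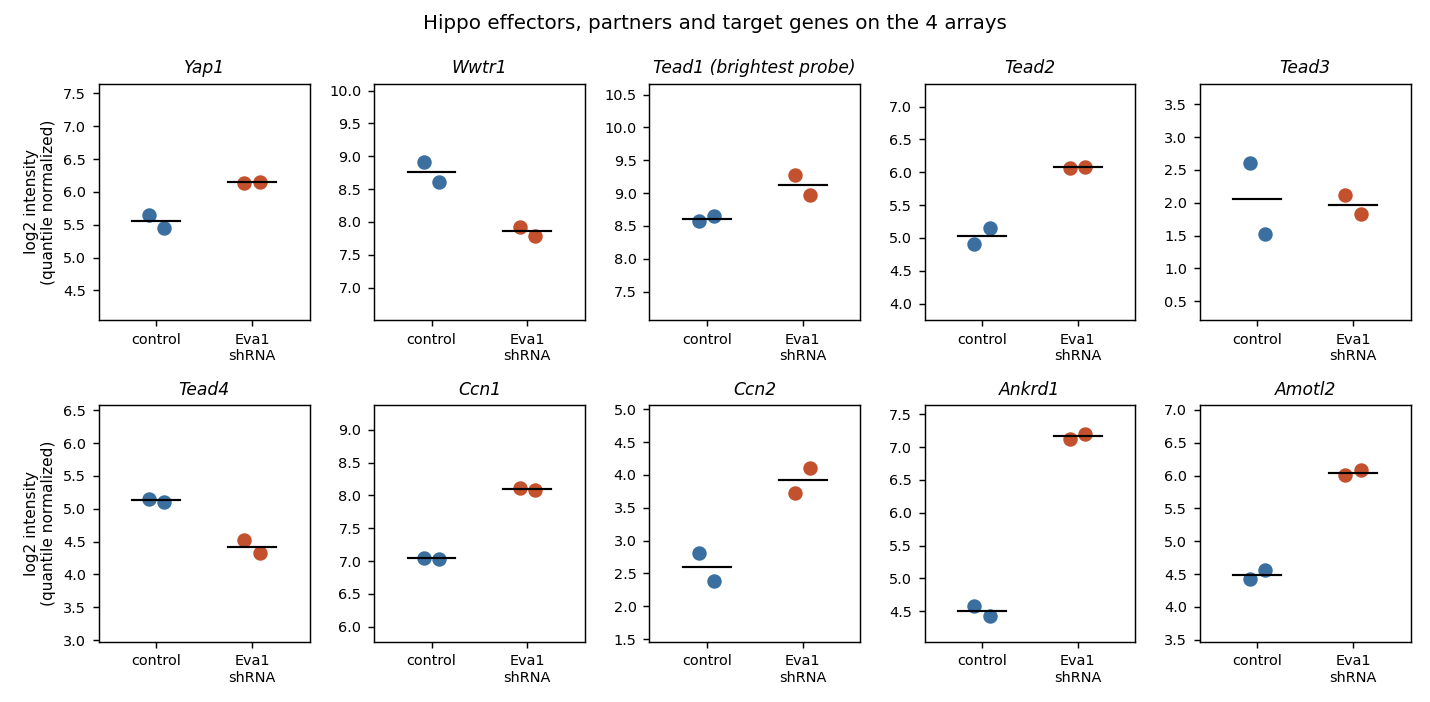
Normalized log2 intensity of each member on the 2 control arrays (blue) and the 2 Eva1 shRNA arrays (red), with group means as lines and every panel spanning the same number of log2 units. The groups are separate for 9 members and overlap for Tead3, with Tead1 shown by its brighter probe (by the probe annotated as Tead1 they overlap).

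Among the targets, Ankrd1 showed the largest change of the 10 members. Ankrd1 encodes a small ankyrin repeat protein first studied in heart muscle and is a textbook YAP and TAZ target. Its intensities were 21.8 and 20.5 in control cells, against 152 and 154 in Eva1 shRNA cells. Both Eva1 shRNA arrays thus lay far above both control arrays, and the arrays of each group lay close together (21.1 ± 0.923 and 153 ± 1.33, SD, n = 2 each). Ankrd1 was 6.32-fold higher, a log2 change of 2.66 ± 0.14 (limma adjusted p = 0.00105), and ranked 70 among rises of all genes. Its log2 change lay between 2.04 and 2.85 over 14 alternative settings, and it was called in each of them.

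Amotl2 encodes a motin family protein that binds YAP and restrains it, so that it is both a target and a regulator. Intensities of Amotl2 were 19.4 and 22.7 in control cells and 70.3 and 70.8 in Eva1 shRNA cells. The groups did not overlap, and Amotl2 rose 2.93-fold, with a log2 change of 1.55 ± 0.14 (limma adjusted p = 0.0027). Like Ankrd1, it kept its call under all 14 alternatives, with log2 changes from 1.09 to 1.75.

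Ccn1 and Ccn2 encode secreted matricellular proteins (also known as CYR61 and CTGF) that bind integrins, and both are immediate targets of YAP and TAZ. Ccn1 read 124 and 122 in control cells, against 299 and 283 in Eva1 shRNA cells. This 2.08-fold rise (log2 change 1.06 ± 0.13, limma adjusted p = 0.00598) was far larger than the spread within either group. Without Eva1 shRNA array 1 the adjusted p of Ccn1 was 0.0471, the highest of its alternatives.

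Ccn2 was dim, at the 25.2 percentile of gene levels. Its intensities were 6.27 and 5.06 in control cells and 14.8 and 18.1 in Eva1 shRNA cells, which do not overlap. The control values lay at the upper end of those of partly blank probes. The filled cells of such probes had a median of 2.16 and reached 4.71 at their 95th percentile and 9.01 at their 99th. Ccn2 had a log2 change of 1.32 ± 0.22 (limma adjusted p = 0.0127). Adding 16 units brought the change to 0.50, and it still passed the test. The call was lost without Eva1 shRNA array 2 (adjusted p = 0.0669) and with blank cells filled with the lowest value of the array (adjusted p = 0.0578).

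**Figure D2:**
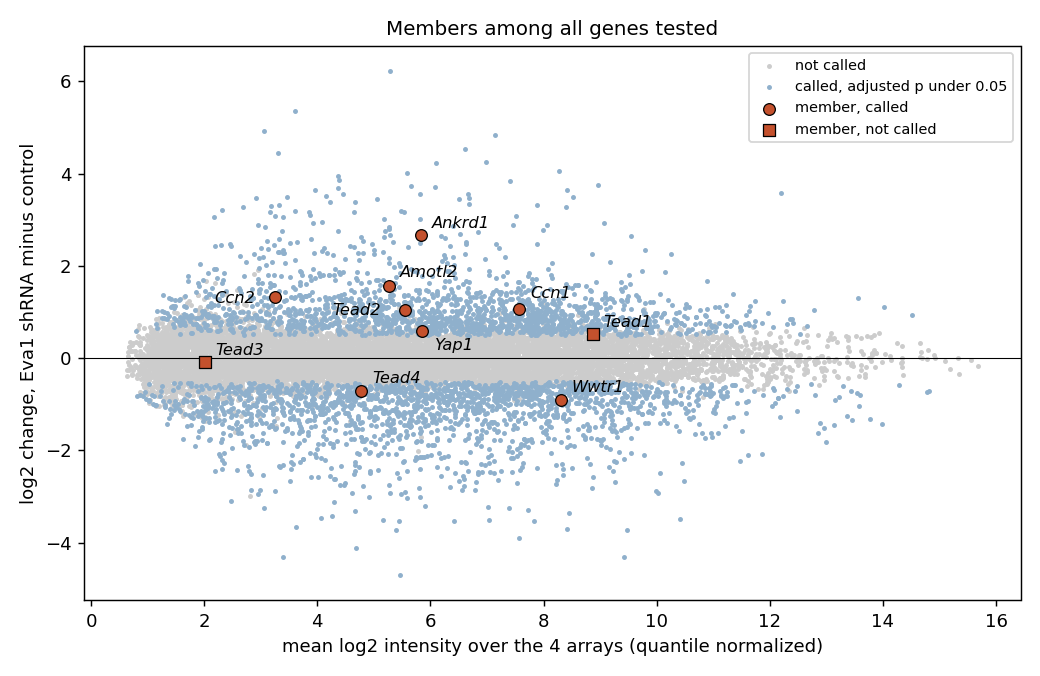
Log2 change (Eva1 shRNA minus control) of every gene tested against its mean normalized log2 intensity over the 4 arrays, with called genes in blue, others in grey and the members named. The 4 targets lie above 1 on the log2 scale, with Ankrd1 highest at 2.66, while Wwtr1 and Tead4 lie below 0.

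The 2 effector genes moved in opposite directions. Yap1, which encodes the coactivator YAP, had intensities of 46.4 and 41.9 in control cells and 78.0 and 74.7 in Eva1 shRNA cells. Wwtr1, which encodes the related coactivator TAZ, went the other way, from 455 and 363 to 262 and 228. In neither gene did the groups overlap, although the control arrays of Wwtr1 were further apart than those of Yap1.

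Yap1 rose 1.51-fold, a log2 change of 0.60 ± 0.15 (limma adjusted p = 0.0365). Wwtr1 was 1.86-fold lower, at -0.90 ± 0.17 (limma adjusted p = 0.0174). Yap1 lost its call whichever array was left out, with log2 changes from 0.51 to 0.69. Yap1 also lost its call with blank cells filled (limma adjusted p = 0.0535) and with the replicate number as a block (limma adjusted p = 0.061). Wwtr1 lost it without control array 1 or either Eva1 shRNA array, up to an adjusted p of 0.0951 without Eva1 shRNA array 2, and kept it without control array 2, with log2 changes from -1.06 to -0.74. Over all genes the number called higher was then 544 to 1144 in place of 1720. The direction of both genes was the same under every alternative run, including the authors' scaling, where the log2 change was 0.79 for Yap1 and -0.73 for Wwtr1.

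The TEAD genes, which encode the DNA-binding factors through which YAP and TAZ act, changed unevenly. Tead2, the family member linked to early embryonic and neural progenitor expression, had intensities of 27.3 and 33.6 in control cells and 73.8 and 70.6 in Eva1 shRNA cells. Both Eva1 shRNA arrays were clearly above the controls, a 2.07-fold rise (log2 change 1.05 ± 0.15, limma adjusted p = 0.00841). The adjusted p of Tead2 reached 0.0555 without Eva1 shRNA array 1, and its call was also lost without Eva1 shRNA array 2.

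Tead4, known for its role in the first lineage choice of the mouse embryo, was lower. Its intensities were 32.2 and 32.7 in control cells and 25.2 and 21.0 in Eva1 shRNA cells, so the groups did not overlap but stood close. Tead4 had a log2 change of -0.70 ± 0.15 (limma adjusted p = 0.0234), or -0.50 with the authors' scaling (adjusted p = 0.068), where the call was lost. It was lost whichever array was left out as well, and its adjusted p reached 0.126 when Eva1 shRNA array 2 was. Adding 16 units gave Tead4 a log2 change of -0.44.

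Tead1 was read by a pair of probes that differed. The probe annotated as Tead1 had intensities of 33.1 and 28.9 in control cells and 33.7 and 32.7 in Eva1 shRNA cells, and its log2 change was -0.11 ± 0.16 (limma adjusted p = 0.676 over 19199 probes). The brighter probe, assigned by symbol update, read 361 and 374 against 665 and 521. Its groups did not overlap, yet its log2 change of 0.51 ± 0.16 did not pass over genes (limma adjusted p = 0.0718). It passed under 5 of the alternatives, among them the authors' scaling (adjusted p = 0.039) and 16 units added (adjusted p = 0.00914). The mean of the pair gave a log2 change of 0.20.

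Tead3 was dim as well, at the 10.4 percentile of gene levels. Its intensities were 5.41 and 2.80 in control cells and 4.76 and 3.66 in Eva1 shRNA cells, and both Eva1 shRNA values lay between the control values. The log2 change of -0.09 ± 0.37 (limma adjusted p = 0.882) had the largest standard error of the members, and its sign turned with the authors' scaling (0.10). It also turned when control array 1 (0.46) or Eva1 shRNA array 2 (0.05) was left out. These intensities lay in the range of partly blank probes, and the control arrays differed by more than the groups did. The values therefore do not settle whether Tead3 changed.

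**Figure D3:**
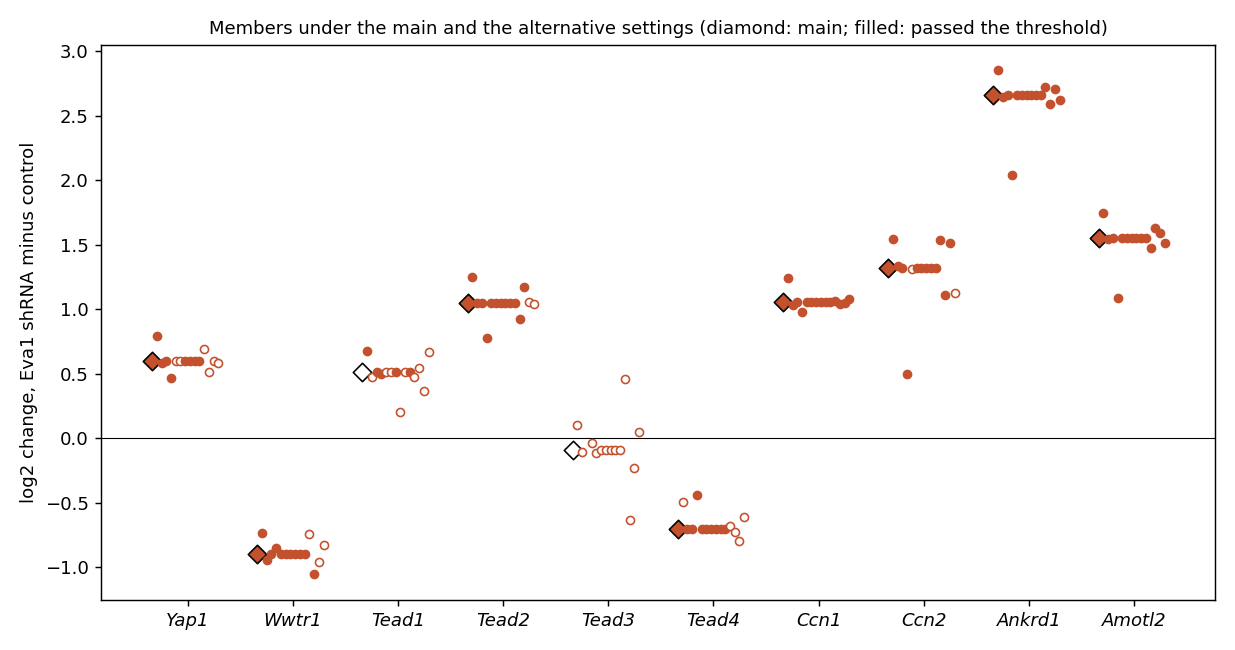
Log2 change of each member in the main setting (diamonds) and under the alternative settings (circles, in the order listed in the processing summary), filled where the gene passed the threshold and open where it did not. Ankrd1, Amotl2 and Ccn1 are filled throughout, while Yap1, Wwtr1, Tead2, Tead4 and Ccn2 each have open circles.

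The 4 targets were compared with further genes of a published YAP and TAZ target signature, from which the members had been removed. Of 18 listed genes, 15 were tested, 1 rose, 4 fell and 10 did not pass, with a median log2 change of -0.29. These 5 calls of 15 stand beside 26.0% of all genes called. Ccdc80, a secreted matrix protein gene, was the one that rose. Its intensities of 6.98 and 7.03 in control cells and 46.8 and 38.3 in Eva1 shRNA cells gave a log2 change of 2.39 ± 0.16 (limma adjusted p = 0.00122), or 1.24 with 16 units added.

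The falls in this list were led by F3 and Igfbp3. F3, which encodes tissue factor, the starter of blood coagulation, read 2957 and 3909 in control cells and 593 and 602 in Eva1 shRNA cells, a log2 change of -2.67 ± 0.19 (limma adjusted p = 0.00142). Igfbp3, a binding protein of insulin-like growth factors, read 5683 and 5657 against 1246 and 1542, a log2 change of -2.23 ± 0.18 (limma adjusted p = 0.00207). Both were called under all 14 alternatives, in the direction opposite to the 4 member targets.

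Gadd45a, a stress response gene, was 2.01-fold lower (limma adjusted p = 0.00698), and its adjusted p was 0.0544 without Eva1 shRNA array 1. Nt5e, which encodes the cell surface enzyme CD73, had a log2 change of -1.05 at low intensities of 5.26 ± 0.367 and 2.89 ± 0.238 (SD, n = 2 each), and with 16 units added its change was -0.21 and its call was lost (adjusted p = 0.105). The receptor tyrosine kinase gene Axl did not pass, at -0.43 (limma adjusted p = 0.0757), nor did Arhgef17 (-0.39), Foxf2 (0.49) and Lats2 (0.44), with adjusted p from 0.107 to 0.155. Axl and Arhgef17 passed with 16 units added and Foxf2 with the authors' scaling. Nuak2, a kinase gene of the list, could not be tested because of a blank cell: it was blank and 2.39 in control cells and 18.3 and 12.8 in Eva1 shRNA cells.

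Of 31 upstream regulators of the pathway, 24 were tested, 2 rose, 4 fell and 18 did not pass, with a median log2 change of -0.11. This is a share of calls close to the 26.0% of all genes. The core kinase genes Stk4 (-0.37), Lats1 (-0.10) and Lats2 (0.44) and the adaptor genes Sav1 (-0.46), Mob1a (-0.41) and Mob1b (0.25) did not pass, with limma adjusted p from 0.109 to 0.79. Mob1a, the only gene of these followed by name under the alternatives, passed in 3 of them, including 16 units added (adjusted p = 0.0303). In that setting 8 genes of the upstream list were called lower in place of 4, so further genes of the list passed as well. Stk3, Map4k2, Fat1 and Vgll3 had no named probe here, and Ptpn14, Vgll1 and Vgll2 had blank cells. Lats2 and Ptpn14 stand in both lists.

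Ajuba, a LIM protein that inhibits the LATS kinases, rose 2.08-fold, from 9.33 and 10.6 in control cells to 23.7 and 24.9 in Eva1 shRNA cells (log2 change 1.06 ± 0.14, limma adjusted p = 0.00703). Its change was 0.52 with 16 units added, and its adjusted p was 0.051 without Eva1 shRNA array 2. Frmd6, a membrane-associated activator of the pathway, was 2.07-fold lower, from 1033 and 1019 to 628 and 478 (log2 change -1.05 ± 0.17, limma adjusted p = 0.0115). Frmd6 reached an adjusted p of 0.0616 without Eva1 shRNA array 2, and its call was also lost without control array 1.

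The other called regulators were closer to the threshold. Map4k3 (-0.94), Map4k1 (-0.95) and Taok1 (-0.57), kinases that can phosphorylate LATS, fell, and Wwc2 (0.51), a relative of the KIBRA scaffold gene, rose, with limma adjusted p from 0.038 to 0.0483. With 1 array left out their adjusted p reached 0.139 for Map4k3 and 0.156 for Map4k1 without Eva1 shRNA array 1, and 0.191 for Taok1 and 0.199 for Wwc2 without Eva1 shRNA array 2. Map4k3, Map4k1 and Taok1 also lost their calls with the authors' scaling, and Wwc2 lost its call with median centring. Dchs1, an atypical cadherin gene, had 0.47 without passing (limma adjusted p = 0.0885) and passed with the authors' scaling (adjusted p = 0.0355).

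**Figure D4:**
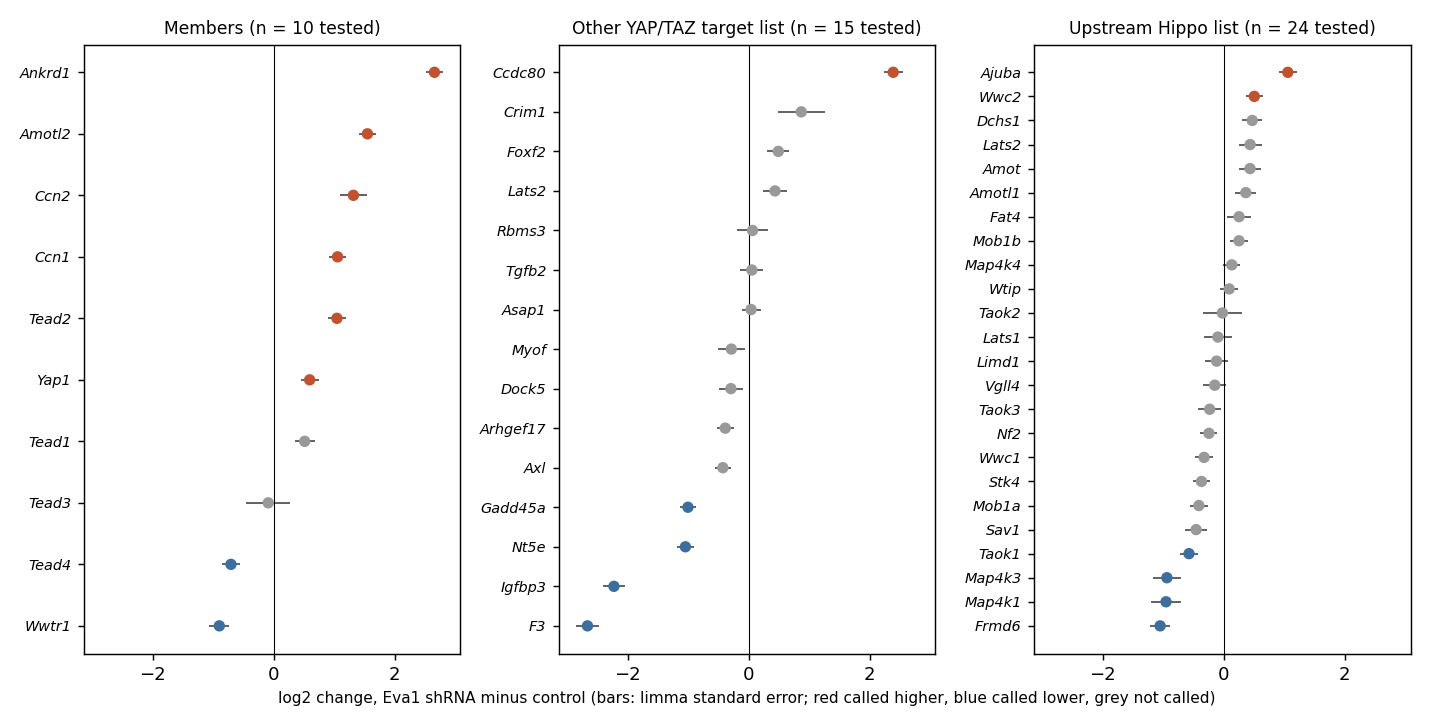
Log2 change with its limma standard error for the 10 members, the 15 tested genes of the other YAP and TAZ target list and the 24 tested upstream regulators, in red where called higher, blue where called lower and grey where not called. The 4 member targets all lie to the right of 1, whereas the other targets run from -2.67 for F3 to 2.39 for Ccdc80.

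Relatives of Ccn1 and Ccn2 in the CCN family changed in both directions. Ccn4 (also named Wisp1), a Wnt-induced family member, had intensities of 5.58 and 3.62 in control cells and 48.1 and 44.5 in Eva1 shRNA cells. Its log2 change of 3.18 ± 0.27 (limma adjusted p = 0.00219) rests on control values near those of partly blank probes. It was 1.50 with 16 units added, where Ankrd1 had 2.04. Ccn3 (Nov) rose by 0.73 ± 0.19 on the log2 scale (limma adjusted p = 0.0442) and lost its call whichever array was left out (adjusted p up to 0.193, without Eva1 shRNA array 1). Ccn5 (Wisp2), which lacks the C-terminal domain of its relatives, was lower, at 10.2 and 10.5 against 2.00 and 2.86 (log2 change -2.28 ± 0.21, limma adjusted p = 0.0027), or -0.57 with 16 units added.

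Over the 4 arrays, the genes whose normalized log2 profile lay nearest to that of Ankrd1, after centring on the control mean, were Tmem238, Cbr3 and Perp, at Euclidean distances of 0.115, 0.139 and 0.206. Cbr3, a carbonyl reductase gene, read 41.5 and 42.2 in control cells and 316 and 314 in Eva1 shRNA cells. With only 2 groups of 2 arrays, this likeness says only that the genes rose by a similar amount, with log2 changes of 2.64, 2.73 and 2.79.

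Target genes such as Ccn1, Ccn2 and Ankrd1 are also expressed in mesenchymal cells, and markers of those cells were therefore set beside them. Levels were summed over each marker list with a blank cell taken as 0. The summed intensity of the 5 smooth muscle and pericyte markers was 25.9 to 32.8 in control cells and 323 to 421 in Eva1 shRNA cells. The rise came from Acta2, the smooth muscle actin gene, at 4.04 and 4.38 against 408 and 316 (log2 change 6.22, limma adjusted p = 0.000874). These control values lay within the range of partly blank probes, and with 16 units added the change was 4.10. Of the other smooth muscle genes, Tagln (1.64 to 3.59) and Myh11 (2.58 to 2.82) stayed near the lowest values of the arrays, Cnn1 was blank on 1 array of each group, and the pericyte gene Rgs5 fell (-2.53, limma adjusted p = 0.0164), a call lost when either control array was left out (adjusted p up to 0.0769) and with blank cells filled. With 16 units added Rgs5 had -0.86, at Eva1 shRNA intensities of 6.18 and 2.13.

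The 4 fibroblast markers summed to 176 to 193 in control cells and 142 to 200 in Eva1 shRNA cells. Of these Col1a2 (0.76, limma adjusted p = 0.0226) and Pdgfrb (0.54, limma adjusted p = 0.0421) rose, although both calls were lost whichever array was left out (adjusted p up to 0.125 and 0.201). Dcn read 117 and 93.0 in control cells and 55.3 and 15.5 in Eva1 shRNA cells. Its log2 change of -2.02 did not pass (limma adjusted p = 0.0532), nor did that of Col1a1 (-0.15, at 4.34 to 7.07). Of the 3 endothelial markers, Kdr read 15.0 and 9.36 in control cells and 13.8 and 16.8 in Eva1 shRNA cells without passing, and Pecam1 and Cdh5 were each blank on 1 array and at most 4.46 elsewhere. The 4 microglia and leukocyte markers summed to 209 to 238 in control cells and 155 to 162 in Eva1 shRNA cells. Of these Cd68, a lysosomal gene, fell (-1.17, limma adjusted p = 0.0108), Csf1r (0.25, from 34.0 and 38.0 to 53.0 and 44.5) and Aif1 (-0.09, at 19.9 to 29.9) did not pass, and Ptprc was blank on both control arrays and at most 1.74 on the others. In bulk RNA a change in the share of a cell type and a change of RNA per cell cannot be told apart, and the part of these markers in the rise of the 4 targets was not tested.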

How the data were processed

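The data were 4 one-colour arrays, 2 control and 2 Eva1 shRNA, grouped by the labels. The deposited values are intensities on a linear scale that the authors scaled to a median near 25, as the values show. Scanner, background correction and the reason for blank cells: not given in the sources used here. The platform annotation named 1 gene for 16631 of 23473 probes, several for 0 and none for 6842. RefSeq (GRCm38.p6) gave newer symbols for 3947, while 59 were ambiguous and 3 unmatched.

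The 19199 probes without a blank cell were taken to log2 and quantile normalized, since array medians differed by 0.274 (set limit 0.1). These medians were lower on both control arrays (4.99 and 5.04) than on both Eva1 shRNA arrays (5.27 and 5.19). Blank cells made up 12.0% and 10.8% of the control arrays and 6.95% and 8.35% of the Eva1 shRNA arrays. The normalization thus evened out a difference that ran with the groups, whose source was not tested. The brightest probe stood for a gene. Groups were compared with limma 3.58.1 (R 4.3.3; lmFit and eBayes, two-sided, Benjamini-Hochberg over 13765 genes, threshold 0.05). Precision is limited by the number of arrays, which leaves 2 residual degrees of freedom. Replicates correlated at 0.991 and 0.993 across probes. The fit was also run on simulated data with independent normal noise. Those data held no blank cells or array shifts, so the run cannot show how such features affect the calls.

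The alternatives, in the order plotted, were the scaling of the authors, centring on medians, removal of the dimmest 25% of probes, 16 units added before log2, blank cells filled, the replicate number as a block, eBayes trend, the mean of a gene's probes, every probe tested, a threshold of 0.1, and each array left out with probes kept and arrays normalized again. Members and lists were chosen with earlier results of these data known. Named genes were the members, Mpzl2, the 8 smallest p-values of each list, the CCN relatives and the 3 profiles nearest to the most changed member; other list genes and the cell type markers were named after their values were seen. Figures were drawn with matplotlib 3.10.9.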

Additional observations from a re-analysis of the deposited data

How the results depend on the processing

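The 4 member targets were called higher in every setting except 2, with 3 called when blank cells were filled and 3 without Eva1 shRNA array 2. With the authors' scaling alone 1 member was called lower in place of 2, the upstream list gave 4 higher and 1 lower, the other target list 2 higher, and 2714 of all genes were called higher. The number called higher in the upstream list was 1 with median centring and with every probe tested and 4 with eBayes trend, and the number called lower was 8 with 16 units added and 1 with blank cells filled. The other target list gave 3 higher without the dimmest 25% of probes, 2 with blank cells filled and 4 with eBayes trend. Leaving out each array in turn gave 3 to 5 members called higher and 0 to 1 called lower, 0 to 1 higher and 0 to 1 lower in the upstream list, and 544 to 1144 higher and 735 to 1156 lower over all genes. The change of Tead3 turned positive with the authors' scaling (0.10) and, leaving out each array in turn, ran from -0.63 to 0.46, positive without control array 1 (0.46) or Eva1 shRNA array 2 (0.05). Tead3, Nt5e and Ccn5 gave no value without the dimmest 25% of probes. Deviations of equal replicate numbers correlated at -0.00926 across probes, so they showed no shared deviation. This value cannot tell whether samples of equal number were handled together, and the replicate number was therefore also run as a block. With the replicate block 5 members were called higher and 2 lower (adjusted p of Yap1 0.061), the upstream list gave 1 higher and 2 lower, and the other target list gave 2 higher. Map4k1 (adjusted p 0.0567), Taok1 (0.0628) and Wwc2 (0.0851) were not called with the block. By the probe annotated as Tead1, an alternative chosen after seeing the data, the change of Tead1 was -0.11. The cause of these differences was not tested. Signals near those of partly blank probes on at least 1 array limit Ccn2, Ccn4, Ccn5, Tead3, Nt5e, Ccdc80, Acta2, Rgs5 and Mpzl2, among others.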

Other observations

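The letters GGAATG were about as common before genes that rose as before genes that fell. They were in 13.0% of the 1389 genes called higher that had a promoter window, in 12.9% of the 1454 genes called lower and in 13.0% of the 11044 tested genes with a window. Among the other YAP and TAZ targets, 3 of 12 genes with a window (Axl, Crim1 and Ptpn14) held them. The 4 genes of that list that fell (F3, Igfbp3, Gadd45a and Nt5e) had 0 copies. So did Foxf2, Lats2, Myof, Rbms3 and Tgfb2, which were not called, and Ccdc80, which rose, had no matched window. No test was made of these shares.

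Of the 4 neuronal markers, 2 were tested. Tubb3 was higher, at 29.0 and 29.5 in control cells and 50.4 and 71.2 in Eva1 shRNA cells (log2 change 0.84, limma adjusted p = 0.0443), and lost its call in 5 of the alternatives, with adjusted p up to 0.15 without Eva1 shRNA array 2. Snap25 (0.13) did not pass, Syp was blank on 1 array, and Rbfox3 had no named probe. The fall of Cd68, from 181 and 148 to 77.3 and 89.3, lost its call without control array 1 or Eva1 shRNA array 1 (adjusted p up to 0.0648, for the latter). Of the 6 neural stem and glial markers, 4 were tested and did not pass (Nes -0.47, Pax6 -0.31, Olig2 -0.66 and S100b 0.01).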
